A study of Mus musculus with 6 samples.

Results

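The 10 genes described here encode homeodomain, paired-box and basic helix-loop-helix transcription factors that divide the embryonic neural tube along its dorsoventral axis. They were chosen by name, with earlier results of these data known. Pax3, Pax7, Msx1 and Msx2 are of the dorsal tube, Pax6, Irx3 and Dbx1 of its intermediate part, and Nkx6-1, Olig2 and Nkx2-2 of the ventral tube. They are 10 of the 16263 genes with a symbol on the array, and 92 of the 228090 probesets were theirs. RNA came from P19, a single mouse embryonal carcinoma line, and was hybridized to the Mouse Exon 1.0 ST array, on which an exon is read by its own small group of probes, the probeset. Day 0 cells were undifferentiated and untreated. Day 7 cells (neuronal differentiated) and Day 10 cells (early glial stage) had been aggregated with 1 µM retinoic acid (RA) over 4 days. Each day had 2 biological duplicates, which makes 6 arrays. The study compared undifferentiated with neural-differentiated cells, and the comparisons here ask which of the patterning factors differed between the days.

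In the neural tube, Sonic hedgehog from the floor plate and notochord patterns the ventral side, while BMP and Wnt proteins from the roof plate pattern the dorsal side. The graded signals switch homeodomain factors on or off, and pairs of these factors repress each other, so that each progenitor domain carries its own combination and gives rise to its own neurons. RA from the neighbouring mesoderm contributes to Pax6 and Irx3 expression in the intermediate tube. Several of the factors are also used outside the neural tube: Pax3 and the Msx genes in neural crest and mesenchyme, Pax3 and Pax7 in muscle progenitors, and Pax6, Nkx2-2 and Nkx6-1 in the endocrine pancreas.

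The deposited values are exon-level intensities on a linear scale. The level of a gene on an array was the median, over its probesets, of log2(intensity + 16), so that a difference of 1 is close to 2-fold for bright probesets and understates the change of dim ones. Each pair of days was compared with limma over all 11384 genes whose mean level reached 6.31 (log2), and calls required a 2-fold change besides an adjusted p under 0.05. Of the 10 factors, 9 passed this filter on low values and Nkx2-2 did not. The median intensity of the arrays was between 156 and 216. The Day 10 duplicates stood apart, with 1362 genes differing over 2-fold (557 between the Day 0 arrays, 106 between the Day 7 arrays), and Day 10 replicate 2 lay above replicate 1 by a median of 0.46 (log2). The number of arrays limits the precision. The p-values measure only the spread between duplicates, which limma moderates for each gene with that of all tested genes.

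Pax3, Msx1 and Irx3 rose in the differentiated cells, and the other factors were not called on any day. On Day 7, 2 of the 9 tested factors were called higher than on Day 0 (Pax3 and Msx1), where 11.2% of all tested genes were called higher, and 0 were called lower, where 4.5% were. On Day 10, 3 were called higher than on Day 0 (Pax3, Msx1 and Irx3), against 7.27% of all tested genes, and 0 lower, against 7.43%. Between Day 10 and Day 7, 0 of the 9 were called higher and 0 lower, where 0.36% and 0.334% of all tested genes were called. The share of lower calls moved with the Day 10 arrays. The lower calls of all genes numbered 38 between Day 10 and Day 7, but 1295 without Day 10 replicate 2, and 846 between Day 10 and Day 0, but 2074 without it and 345 without replicate 1. With the mean of probesets, the lower calls between Day 10 and Day 7 were 364. At an unadjusted p under 0.05, 4 factors were higher and 0 lower on Day 7 than on Day 0 (18.9% and 9.23% of all tested genes), 3 higher and 0 lower on Day 10 than on Day 0 (12.5% and 17.3%), and 0 higher and 1 lower on Day 10 than on Day 7 (2.74% and 14.2%). Both Day 7 arrays lay above both Day 0 arrays for 4 factors and below for 1, where 36.9% and 25.9% of all tested genes did so. For Day 10 against Day 0 these counts were 3 and 0, beside 22.3% and 30.3%, and for Day 10 against Day 7 they were 1 and 2, beside 11.1% and 37.4%. The median change of the 9 factors was 0.11 on Day 7 and 0.083 on Day 10, both against Day 0, beside medians of 0.099 and -0.11 over all tested genes. From Day 7 to Day 10 it was 0.026, beside -0.25 over all tested genes, so that a factor with no change in intensity lay above the general shift between those days. Both comparisons with Day 0 share its arrays, and those with Day 7 share its arrays as well.

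**Figure D1:**
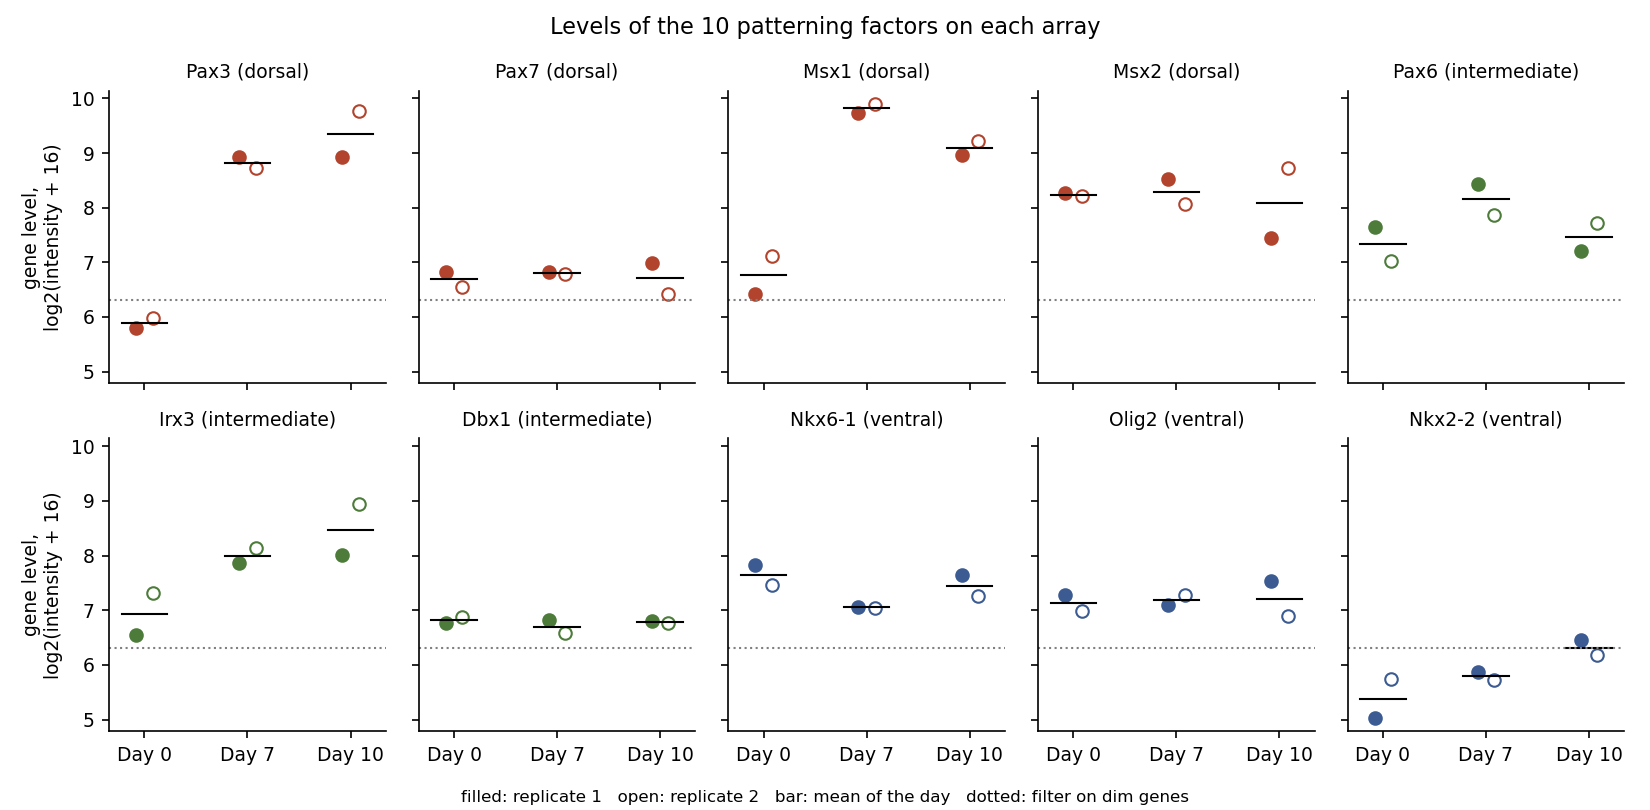
Gene level (vertical axis, log2 of intensity + 16) of each of the 10 factors on Day 0, Day 7 and Day 10 (horizontal axis), with replicate 1 filled, replicate 2 open, the mean of the day as a bar and the filter level of 6.31 dotted. Pax3 and Msx1 lay between 5.79 and 7.12 on Day 0 and between 8.72 and 9.90 on the other days, while Pax7, Dbx1 and Olig2 overlapped on all days.

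Pax3, a paired-box factor of the dorsal neural tube and of neural crest, had gene levels of 5.79 and 5.98 on Day 0, 8.92 and 8.72 on Day 7, and 8.92 and 9.77 on Day 10. Both Day 0 arrays lay far below all 4 later arrays, while the Day 10 range overlapped that of Day 7. In intensity the middle of its probesets moved from 39.5 and 46.9 on Day 0 to 470 and 407 on Day 7 and to 469 and 860 on Day 10. The rise was 2.94 (log2, SE 0.34, n = 2 per day) on Day 7, with an adjusted p of 4.064e-05 by limma. On Day 10 it was 3.46 (SE 0.34) above Day 0, with an adjusted p of 1.586e-05 by limma. These are 7.67-fold and 11.03-fold on the scale with the offset. The difference of 0.52 (SE 0.34) between Day 10 and Day 7 was not called (adjusted p = 0.4539 by limma, 95% interval -0.21 to 1.25).

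Every probeset of Pax3 moved the same way. All 14 of its probesets were higher on both Day 7 arrays than on both Day 0 arrays, where 28.6% of the probesets with 1 symbol were, and their changes ran from 1.79 to 4.29 with a median of 3.16. On Day 10, 13 of 14 lay above both Day 0 arrays, against 20.7% of all, 0 lay below both, against 27.3% of all, with changes from 1.14 to 4.33. Pax3 lies on chr1:78101267-78197136 (GRCm38.p6), and the annotation has no other gene overlapping it there.

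Pax7, the paralog of Pax3, is a factor of the alar plate and of muscle stem cells. Its levels were 6.83 and 6.54 on Day 0, 6.82 and 6.78 on Day 7, and 6.99 and 6.43 on Day 10. The Day 7 values lay inside the Day 0 range, and the Day 10 values enclosed all others. The change was 0.11 (SE 0.32, 95% interval -0.57 to 0.80, adjusted p = 0.8727 by limma) on Day 7 and 0.024 (SE 0.32, 95% interval -0.66 to 0.71) on Day 10. The interval of each change thus stayed under a 2-fold rise or fall, in contrast to the values of Pax3. Its intensities, 70.2 to 111, lay near the filter level of 63.5, where the offset understates changes. Whether they stood above background was not tested. Of its 11 probesets, 2 were higher and 1 was lower on both Day 7 arrays, beside 28.6% and 23.5% of all probesets, and the changes ran from -1.14 to 0.29. The sign of the Day 7 change turned when the probesets were summarized by median polish or by their mean.

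Msx1, a homeodomain repressor downstream of BMP signalling in the dorsal tube, crest and limb, rose most on Day 7 together with Pax3. Its gene levels were 6.43 and 7.12 on Day 0, 9.74 and 9.90 on Day 7, and 8.96 and 9.23 on Day 10. The 3 days did not overlap, with Day 7 highest, Day 10 next and Day 0 lowest. On Day 7 it stood 3.04 (SE 0.33, n = 2 per day) above Day 0, or 8.25-fold, with an adjusted p of 2.314e-05 by limma. On Day 10 it was still 2.32 (SE 0.33) above Day 0, or 4.99-fold, with an adjusted p of 0.0003744 by limma. From Day 7 to Day 10 the difference was -0.73 (SE 0.33), and this was not called (adjusted p = 0.284, unadjusted p = 0.04468 by limma). Relative to the median of all tested genes that difference was -0.48.

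Only 3 probesets read Msx1, and each had the same order of the days. The one that rose most had intensities of 42.4 and 20.7 on Day 0, 838 and 940 on Day 7, and 698 and 584 on Day 10. Another had 70.0 and 147, then 1239 and 1083, then 482 and 706. The brightest on Day 0 had 196 and 124, then 577 and 856, then 258 and 419. All 3 were therefore highest on both Day 7 arrays and lowest on both Day 0 arrays, with Day 7 changes from 2.06 to 4.29. Of all probesets with 1 symbol, 28.6% lay above both Day 0 arrays on Day 7 and 20.7% on Day 10. The share of all probesets that lay lower on both Day 10 arrays than on both Day 7 arrays was 30.1%, so the 3 of 3 for that step stand beside a frequent event. The annotation places Msx1 at chr5:37820491-37824585 (GRCm38.p6) with the antisense transcript Msx1os overlapping it.

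Msx2, the closest relative of Msx1 and likewise a BMP target, was not called on any day. Its levels were 8.26 and 8.22 on Day 0, 8.52 and 8.07 on Day 7, and 7.44 and 8.74 on Day 10. The days overlapped, and Day 10 held both its lowest and its highest array. The change was 0.057 (SE 0.39, 95% interval -0.79 to 0.90, adjusted p = 0.9514 by limma) on Day 7 and -0.15 (SE 0.39, 95% interval -0.998 to 0.69) on Day 10. The intervals of the Day 7 change of Msx1 (2.34 to 3.75) and of Msx2 are apart, although the difference between the 2 genes was not itself tested. Of the 4 probesets of Msx2, 1 lay under the offset on all 6 arrays and cannot show a change, and the 2 brightest ranged over the 6 arrays from 510 to 911 and from 588 to 1026.

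The 250 bases before the annotated start of Msx1 and Msx2 are shown because these related genes, both known targets of BMP signalling, differed in their values. They are from RefSeq (GRCm38.p6), both on the minus strand, at chr5:37824586-37824835 and chr13:53472781-53473030, and read 5′ to 3′ toward the start. Capitals mark every match, on either strand, of 5 short motifs searched: AGGTCA (half-site of RA receptors), GGCGCC (SMAD GC box), CTTTGA (TCF/LEF core), TAATTA (homeodomain core) and CANNTG (E-box).
Msx1: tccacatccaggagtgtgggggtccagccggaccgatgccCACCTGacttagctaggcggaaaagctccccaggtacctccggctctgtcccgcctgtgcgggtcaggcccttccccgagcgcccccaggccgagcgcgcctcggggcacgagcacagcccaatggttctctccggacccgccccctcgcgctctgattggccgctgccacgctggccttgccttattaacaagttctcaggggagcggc
Msx2: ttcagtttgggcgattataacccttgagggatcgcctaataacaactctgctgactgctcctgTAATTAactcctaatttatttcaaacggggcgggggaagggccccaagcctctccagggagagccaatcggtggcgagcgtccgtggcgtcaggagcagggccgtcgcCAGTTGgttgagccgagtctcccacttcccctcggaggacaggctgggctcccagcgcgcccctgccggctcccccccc
The Msx1 stretch has 1 E-box, starting at position -210, and the Msx2 stretch has 1 E-box at -79 and 1 homeodomain core at -187. Of the 32851 promoters of the same length, 66.2% hold an E-box and 4.84% the homeodomain core, while 14% hold the RA receptor half-site, 9.59% the SMAD box and 13.8% the TCF/LEF core, which neither stretch has. GC content was 68% and 61.6%. The matches describe the letters in these windows and no binding was measured.

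Pax3 and Msx1 are also active in mesenchyme and neural crest, and lists of genes of both were counted, beside 11.2% of all tested genes called higher on Day 7 and 7.27% on Day 10. Like all lists here, they were chosen with earlier results of these data known, so their counts describe and test nothing. Of 13 mesenchyme genes tested, 11 were called higher on Day 7 than on Day 0 and 12 on Day 10. Their summed intensity was 2098 to 2391 on Day 0, 25710 to 29000 on Day 7 and 16580 to 26170 on Day 10. Col1a1, a defining collagen of the list, had levels of 6.80 and 6.22 on Day 0 and between 9.75 and 11.6 afterwards. Of 11 neural crest genes tested, 5 were higher on Day 7 and 6 on Day 10. Snai2 and Twist1, called on both days, are in both lists. The summed intensity of the crest list was 1178 to 1487 on Day 0, 3902 to 4237 on Day 7 and 3277 to 4060 on Day 10. Sox10, a defining gene of migrating crest, stayed between 6.33 and 6.80 on all 6 arrays and was not called, and Tfap2a was not called either, while Tfap2b changed by 4.35 on Day 7 (adjusted p = 1.243e-06 by limma). Of 6 muscle progenitor genes, 0 were called in any comparison by limma, Myf5 and Myod1 among them, and the summed intensity of that list lay between 1129 and 1427 on all arrays. In such bulk RNA a change in the number of cells of a type and a change in RNA per cell cannot be told apart, and the part of mesenchyme or crest cells in the rises of Pax3 and Msx1 was not tested.

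Pax6, a paired-box and homeodomain factor of the intermediate tube, neural retina and endocrine pancreas, had levels of 7.64 and 7.02 on Day 0, 8.44 and 7.87 on Day 7, and 7.21 and 7.71 on Day 10. Both Day 7 arrays lay above the other 4, and Day 10 overlapped Day 0. The Day 7 change of 0.82 (SE 0.35, n = 2 per day, 95% interval 0.071 to 1.57) was not called, with an adjusted p of 0.1376 and an unadjusted p of 0.03424 by limma. Against Day 0, Day 10 differed by 0.13 (SE 0.35, adjusted p = 0.8452 by limma). The difference of -0.69 (SE 0.35) between Day 10 and Day 7 was not called either (adjusted p = 0.3388 by limma).

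The 25 probesets of Pax6 did not move as 1 block. On Day 7, 11 were above both Day 0 arrays, 0 were below and 14 overlapped, beside 28.6% and 23.5% of all probesets above and below, and 8 changed by 2-fold or more. The changes ran from -0.32 to 2.15. The probeset with the largest change had intensities of 49.9 and 95.2 on Day 0, 408 and 325 on Day 7, and 129 and 167 on Day 10. A bright one had 967 and 413, then 1185 and 842, then 894 and 1094. The 8 probesets past 2-fold had mean Day 0 intensities between 11.4 and 138, and the other 17 between 17.4 and 766. The Day 0 value is part of the change that split them, so the lower values of the 8 are partly given by the choice. The share of all probesets past 2-fold was not counted. On Day 10, 0 of the 25 were 2-fold above Day 0. Pax6os1 and Elp4 overlap Pax6 at chr2:105668896-105698410 in the annotation, and probeset positions within the gene were not analysed here.

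Irx3, an Iroquois homeodomain factor that opposes Olig2 at the boundary between intermediate and motor neuron progenitors, had levels of 6.55 and 7.31 on Day 0, 7.87 and 8.13 on Day 7, and 8.02 and 8.94 on Day 10. All 4 later arrays were above both Day 0 arrays, and Day 7 and Day 10 overlapped. In intensity these were 77.4 and 142, then 217 and 265, then 243 and 474. Irx3 rose by 1.55 (SE 0.38, n = 2 per day) from Day 0 to Day 10, or 2.93-fold, with an adjusted p of 0.01377 by limma. This call was lost without Day 0 replicate 1 (change 1.17, adjusted p = 0.09605) and without Day 10 replicate 2 (change 1.09, adjusted p = 0.05453), both by limma. On Day 7 the change of 1.07 (SE 0.38, 95% interval 0.27 to 1.88) had an adjusted p of 0.06875 by limma and was not called. With the replicate number as a block it would be called (adjusted p = 0.01625 by limma), and likewise in 4 of the other alternatives. By median polish and by the mean of probesets the Day 7 change was smaller, at 0.51 and 0.48 (adjusted p = 0.3619 and 0.3777 by limma).

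Of the 10 probesets of Irx3, 4 were above and 1 was below both Day 0 arrays on Day 7, where 28.6% and 23.5% of all probesets were. Their Day 7 changes ran from -0.96 to 1.77. On Day 10, 6 were above and 0 below, beside 20.7% and 27.3% of all, and 5 were 2-fold or more higher, a share not counted over all probesets. Irx5, a neighbour of Irx3 in the Iroquois family and listed here among the ventral tube genes, rose by 1.68 (SE 0.46) on Day 10 with an adjusted p of 0.02592 by limma, and on Day 7 its change was 1.22 (adjusted p = 0.09165 by limma). It was singled out after its values had been seen. The Day 10 duplicates that differed in Irx3 also differed in pluripotency genes: their summed intensity was 2491 to 9094 on Day 10, against 20160 to 23230 on Day 0 and 2387 to 3380 on Day 7, and Pou5f1 stood at 8.39 in replicate 1 and 11.2 in replicate 2. The part of this in the Day 10 values was not tested.

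Dbx1, the homeodomain factor of V0 interneuron progenitors, had levels of 6.76 and 6.88 on Day 0, 6.82 and 6.58 on Day 7, and 6.80 and 6.77 on Day 10. All 6 arrays lay within a narrow band, at intensities of 79.9 to 102 that were, as for Pax7, near the filter level of 63.5. The change was -0.12 (SE 0.30, 95% interval -0.76 to 0.52, adjusted p = 0.8532 by limma) on Day 7 and -0.037 (SE 0.30, 95% interval -0.68 to 0.60) on Day 10. Of its 7 probesets, 1 was higher and 1 was lower on both Day 7 arrays, where 28.6% and 23.5% of all probesets were. The higher one, singled out after its values were seen, had intensities of 21.6 and 0.0111 on Day 0, 93.2 and 66.8 on Day 7, and 54.5 and 50.8 on Day 10, while the lower one changed by -1.16.

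**Figure D2:**
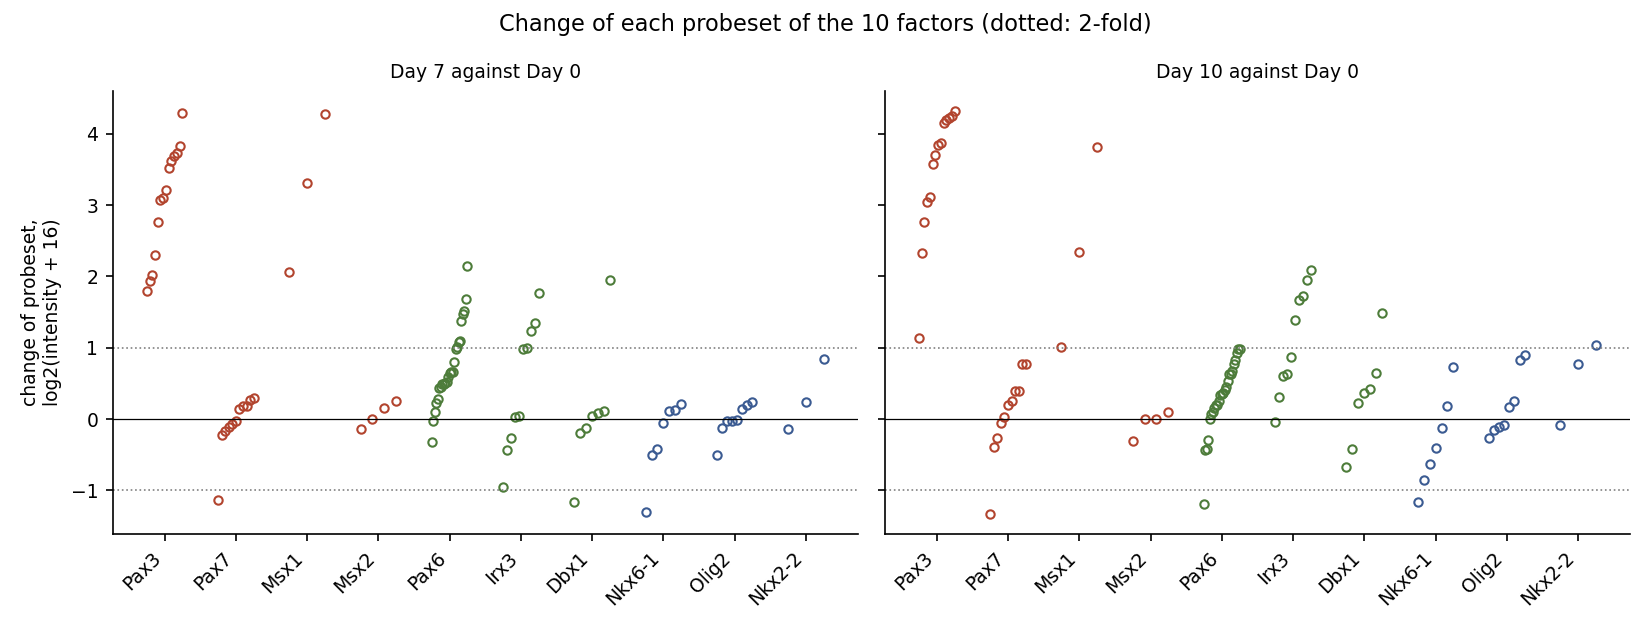
Change of every probeset (points, vertical axis, log2 of intensity + 16) of the 10 factors (horizontal axis) on Day 7 and on Day 10, both against Day 0, with 2-fold dotted. All 14 probesets of Pax3 and all 3 of Msx1 lie above 2-fold in both panels, those of Pax6 run from -0.32 to 2.15 on Day 7, and those of Msx2 stay between -0.31 and 0.25.

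Of the ventral factors, none was called. Nkx6-1, which specifies motor neuron and ventral interneuron progenitors, had levels of 7.83 and 7.46 on Day 0, 7.06 and 7.04 on Day 7, and 7.64 and 7.26 on Day 10. Both Day 7 arrays were below the other 4, and Day 10 overlapped Day 0. The Day 7 change was -0.59 (SE 0.31, 95% interval -1.26 to 0.075, adjusted p = 0.2385 by limma). By median polish and by the mean of probesets it was smaller, at -0.23 and -0.26 (adjusted p = 0.6032 and 0.5855 by limma). Against Day 0, Day 10 differed by -0.20 (SE 0.31), and against Day 7 it differed by 0.40 (adjusted p = 0.5468 by limma). Of 7 probesets of Nkx6-1, 2 were below and 0 above both Day 0 arrays on Day 7, where 23.5% and 28.6% of all probesets were. Their Day 7 changes ran from -1.31 to 0.21, with a median of -0.057.

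Olig2, the basic helix-loop-helix factor of motor neuron and oligodendrocyte progenitors, had levels of 7.27 and 6.99 on Day 0, 7.10 and 7.27 on Day 7, and 7.53 and 6.90 on Day 10. The days overlapped, and Day 10 held both the lowest and the highest array. The change was 0.057 (SE 0.32, 95% interval -0.64 to 0.75, adjusted p = 0.9394 by limma) on Day 7 and 0.083 (SE 0.32, 95% interval -0.61 to 0.78) on Day 10. Of 8 probesets, 1 was under the offset on all 6 arrays. Among 6 tested genes of the oligodendrocyte lineage, Pdgfra alone was called (1.34 on Day 7, adjusted p = 0.007385 by limma), where 11.2% of all tested genes rose on Day 7. Mbp and Sox10 were not called. The summed intensity of the list was 486 to 564 on Day 0, 589 to 619 on Day 7 and 612 to 773 on Day 10.

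Nkx2-2, the factor of the most ventral progenitors next to the floor plate, was too dim to be tested. Its 3 probesets gave levels of 5.03 and 5.74 on Day 0, 5.87 and 5.72 on Day 7, and 6.46 and 6.17 on Day 10, or intensities between 16.6 and 72.2. At the gene level both Day 10 arrays were above the other 4, and Day 7 overlapped Day 0. Of the 3 probesets, 1 was above and 0 below both Day 0 arrays on Day 10, beside 20.7% and 27.3% of all probesets. Their changes ran from -0.079 to 1.03. Against Day 7, 0 were above and 0 below on both Day 10 arrays, beside 14.1% and 30.1% of all. When the filter was left out, Day 10 was 0.93 (SE 0.32) above Day 0, with an adjusted p of 0.09282 by limma. Pax6, Nkx6-1 and Nkx2-2 are also used in the endocrine pancreas, and its marker Pdx1 lay below the filter, between 5.74 and 6.51. Pax6 and Nkx6-1 themselves passed the filter. Of 13 listed endoderm and endocrine genes, only 3 were tested. On Day 7, Gata6 (1.34, adjusted p = 0.01334 by limma) and Chga (1.23, adjusted p = 0.01828 by limma) were called higher, beside 11.2% of all tested genes. On Day 10 Gata6 alone was, beside 7.27%. The summed intensity of the list was 880 to 1094 on Day 0, 1185 to 1337 on Day 7 and 1143 to 1263 on Day 10.

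**Figure D3:**
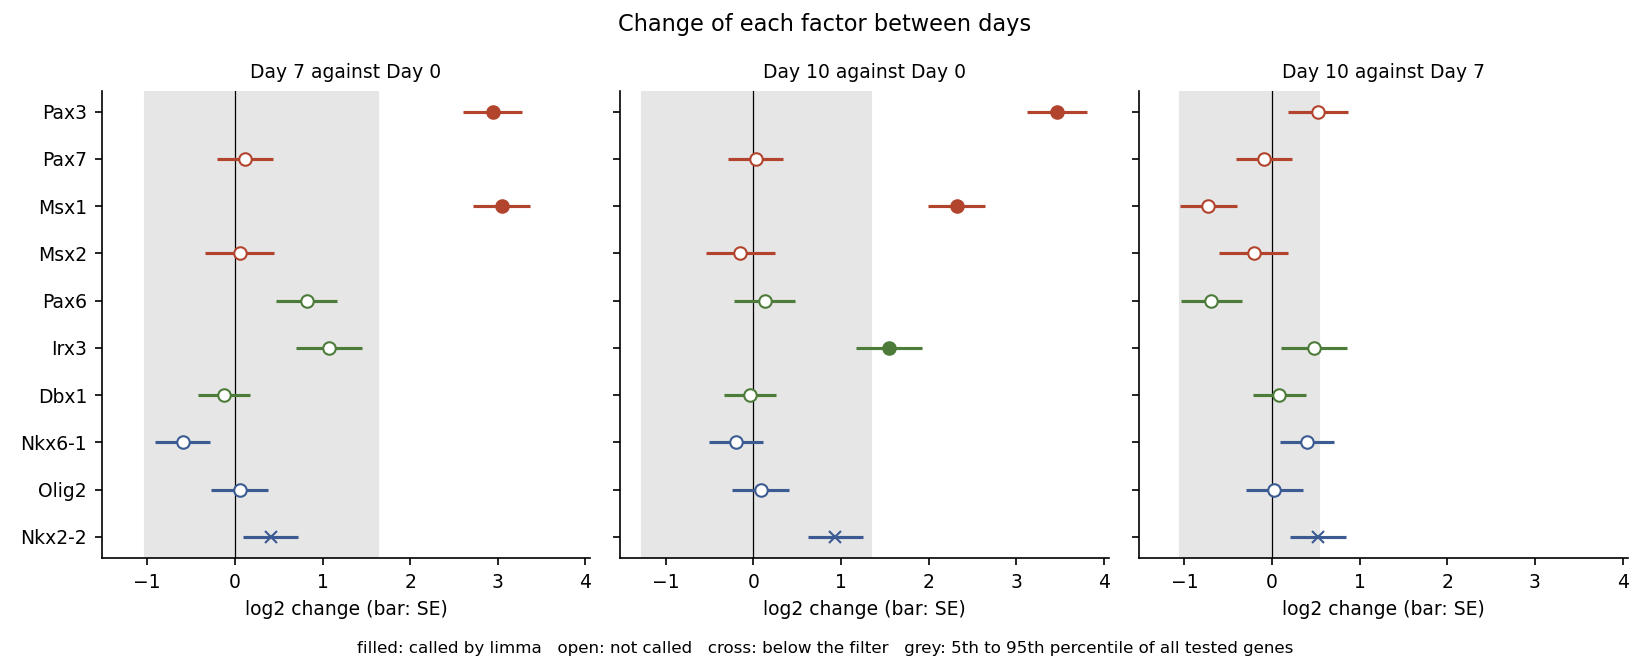
Change of the gene level (horizontal axis, log2, bars ± SE) of each factor in the 3 comparisons, with called genes filled, Nkx2-2 as a cross and the 5th to 95th percentile of all tested genes in grey. Pax3 (2.94 and 3.46) and Msx1 (3.04 and 2.32) lie outside the grey band on Day 7 and Day 10 against Day 0. Irx3 lies outside it on Day 10 against Day 0 (1.55), and no factor is called between Day 10 and Day 7.

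The other genes of the dorsal tube and roof plate were counted from a list, as were those of the signalling pathways. These lists too were chosen with earlier results of these data known. Beside each list stand all tested genes, of which 11.2% rose and 4.5% fell on Day 7 with a median change of 0.099, and 7.27% rose and 7.43% fell on Day 10 with a median of -0.11. Of 20 listed, 16 were tested, and 5 rose, 1 fell and 10 were not called on Day 7, with a median change of 0.28. Wnt1, a roof plate ligand, rose by 2.75 (SE 0.38, adjusted p = 0.0001742 by limma). Lmx1a, a factor that specifies the roof plate, rose by 2.44 (adjusted p = 0.0001971 by limma). Zic1 rose by 1.69 and Atoh1, of the most dorsal interneuron progenitors, by 1.45, and Msx3, another Msx gene of the dorsal tube, by 1.07 (adjusted p = 0.02903 by limma). Gsx2, which in the cord marks dorsal interneuron progenitors, fell by 1.34 (adjusted p = 0.01105 by limma). On Day 10, 4 were above Day 0 and 0 below, Wnt1 at 2.40 among them, and Atoh1 was at 0.20 and not called. No gene of the list was called between Day 10 and Day 7.

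Of 16 ventral tube and floor plate genes, 10 were tested, and 2 rose and 0 fell on Day 7, with a median change of -0.043, against 11.2% and 4.5% of all tested genes and their median of 0.099. The risers were Slit1 (2.25, adjusted p = 0.01431 by limma) and Slit2 (1.90, adjusted p = 0.0006406), secreted guidance proteins that are made by the floor plate and also by neurons. On Day 10 Slit2 (1.66) and Irx5 were called, and none of the list was called between the later days. Shh itself, the ventral signal, had levels of 7.14 and 6.17 on Day 0, 7.13 and 5.84 on Day 7, and 6.78 and 6.86 on Day 10. The days overlapped, and the Day 7 change was -0.17 (SE 0.43, adjusted p = 0.8532 by limma). Foxa2, the floor plate factor, was below the filter, at 6.04 to 6.71.

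In the Sonic hedgehog pathway, 11 of 17 genes were tested, and 4 rose, 1 fell and 6 were not called on Day 7 (median 0.23, beside 0.099 over all tested genes, of which 11.2% rose and 4.5% fell). The co-receptors of the ligand rose: Gas1 by 3.05 (SE 0.37, adjusted p = 6.169e-05 by limma), Boc by 2.50 (adjusted p = 7.252e-05) and Cdon by 2.48 (adjusted p = 8.804e-05). Hhip, which binds and sequesters the ligand, rose by 1.29 (adjusted p = 0.02894 by limma). Ptch1, the receptor of the ligand, had levels of 10.1 and 9.77 on Day 0, 8.46 and 8.56 on Day 7, and 7.96 and 8.94 on Day 10. All 4 later arrays were below Day 0, and Ptch1 fell by 1.45 (SE 0.36, adjusted p = 0.01236 by limma) on Day 7 and by 1.504 (adjusted p = 0.01225) on Day 10. Gli1, an effector of the pathway, was at 6.86 and 6.85 on Day 0 and between 6.29 and 6.41 on the 4 later arrays. Its Day 7 change of -0.55 was not called (adjusted p = 0.2455 by limma). On Day 10, 3 genes of the list were called higher than on Day 0 and 1 lower, and 0 were called between Day 10 and Day 7.

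Of 24 BMP pathway genes, 20 were tested, and 3 rose, 0 fell and 17 were not called on Day 7 (median 0.33). The share that rose is near the 11.2% of all tested genes. Nog, which encodes the BMP antagonist noggin, rose by 4.16 (SE 0.45, adjusted p = 2.513e-05 by limma), from 5.15 and 4.02 on Day 0 to 8.70 and 8.79 on Day 7. Id3, a direct BMP target, rose by 1.80 (adjusted p = 0.01063 by limma), and the receptor Bmpr2 by 1.56 (adjusted p = 0.002714). The related genes Id1 (0.17, adjusted p = 0.7878) and Id2 (1.06, adjusted p = 0.1128) were not called by limma. Smad6 (0.27), Smad7 (0.62) and Bambi (0.38) were not called either. The ligands Bmp4 (1.04, adjusted p = 0.05285) and Bmp7 (0.99, adjusted p = 0.06846) were not called by limma on Day 7. Fst, which encodes the antagonist follistatin and was singled out after its values were seen, fell by 2.21 on Day 10 (adjusted p = 0.004835 by limma). It was the 1 gene of the list called lower on Day 10, beside 3 called higher, and 0 were called between Day 10 and Day 7.

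The RA response list had 19 genes, of which 16 were tested, and 7 rose and 2 fell on Day 7 (median -0.062), beside 11.2% and 4.5% of all tested genes. Meis1, a homeodomain cofactor, rose by 4.03 (adjusted p = 1.564e-06 by limma). The receptor gene Rarb, which has an RA response element in its own promoter, rose by 2.73 (adjusted p = 3.376e-05 by limma), and the retinol transporter gene Stra6 by 2.70. Crabp1 rose by 2.07 while Crabp2, the related binding protein, fell by 1.97 (adjusted p = 0.0002905 and 0.0004809 by limma). Among the genes not called on Day 7 were Cyp26a1 (-1.19, adjusted p = 0.2255 by limma), Cyp26b1 (-0.27) and Hoxb1 (-0.032). On Day 10, 6 were above and 2 below Day 0, and Rarb fell by 1.53 from Day 7 to Day 10 (adjusted p = 0.04298 by limma), as the 1 gene of these pathway lists called in that comparison.

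Of 29 genes that mark neurons born from the different dorsoventral domains, 20 were tested, and 5 rose and 0 fell on Day 7 (median 0.10, beside 0.099 over all tested genes, of which 11.2% rose and 4.5% fell). They were Pax2 (2.30, adjusted p = 0.0003765 by limma), Lhx1 (1.87, adjusted p = 0.002778), Lhx2 (1.71, adjusted p = 0.003888), Pax8 (1.36, adjusted p = 0.007729) and Tlx3 (1.16, adjusted p = 0.01565). Pax2, Lhx1 and Pax8 are known from dorsal and intermediate inhibitory interneurons, Lhx2 and Tlx3 from dorsal excitatory ones. On Day 10 only Pax2 of the list was called higher than on Day 0, 1 was called lower, and 0 were called between Day 10 and Day 7. Isl1, Mnx1 and Chat, which mark motor neurons, were below the filter.

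**Figure D4:**
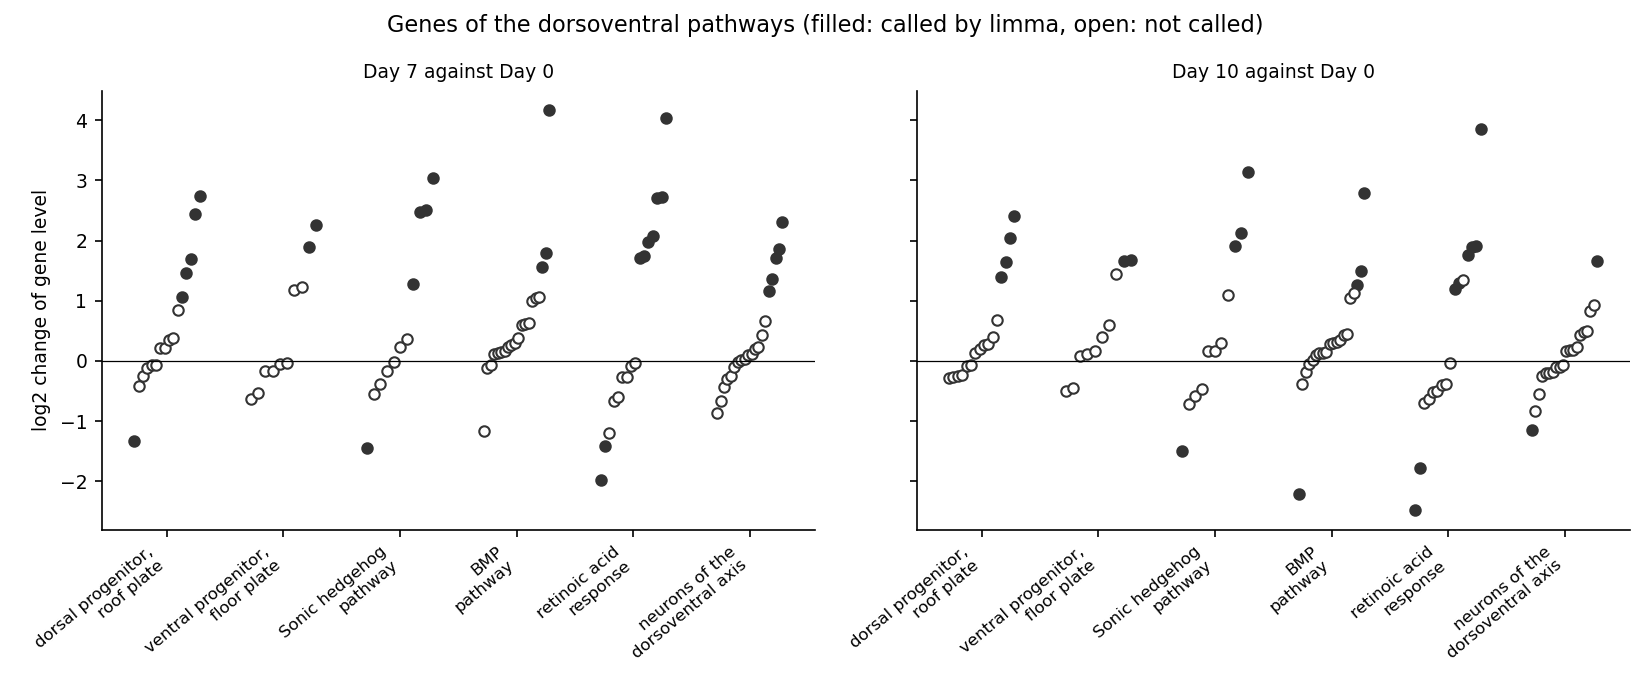
Change of the gene level (vertical axis, log2) on Day 7 and Day 10 against Day 0 for the tested genes of the 6 lists (horizontal axis), each point a gene, filled where called by limma. In each list most or many genes are open, and filled points above 0 include Nog at 4.16 and Meis1 at 4.03 on Day 7.

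The genes with a pattern most like that of Msx1, by the smallest root mean square difference of the centred levels over the 6 arrays, were Shc3 (0.117), Adgrg1 (0.135) and Apba1 (0.15). Shc3, which encodes an adaptor protein found in neurons, had levels of 6.31 and 7.34 on Day 0, 9.75 and 9.96 on Day 7, and 9.17 and 9.24 on Day 10. They were chosen for this likeness, so that their order of the days is given by the choice. Adgrg1 was at 7.15 and 7.61, then 10.2 and 10.6, then 9.46 and 10.1. Apba1 was at 4.99 and 5.44, then 7.89 and 8.42, then 7.46 and 7.78.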

How the data were processed

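Total RNA of P19 cells was measured on 6 Mouse Exon 1.0 ST arrays, 2 biological duplicates for each of Day 0, Day 7 and Day 10 per the labels. The authors deposited exon-level intensities on a linear scale for 228090 core probesets. According to the study's methods the signals were sketch-normalized and summarized with PLIER. The submitters' processing notes instead list RMA, beside Affymetrix Expression Console, without versions. Since the values are linear, RMA's usual log2 scale was not taken as theirs. DABG p-values and probeset positions were not used here, and 0 columns were left unmapped.

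Probesets were assigned by the symbol of the array annotation: 208093 had 1 symbol, 4327 several and 15670 none. Of 16263 symbols, 2131 were updated, and 16220 are current in RefSeq GRCm38.p6, used for names, gene positions and promoter sequences. The gene level was the median of log2(intensity + 16) over the probesets of a gene with 1 symbol. Genes at or above the 30th percentile of the mean level were tested with limma 3.58.1 in R 4.3.3 (lmFit and eBayes, all 6 arrays in 1 fit, Benjamini-Hochberg over all tested genes of a comparison), with calls requiring a 2-fold change besides an adjusted p under 0.05. The limma fit was tested on simulated data. Intervals are at 95%.

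The members and the 16 lists were chosen with earlier results of these data known. The lists are those for dorsal and ventral tube, Sonic hedgehog, BMP, RA response and neurons of the dorsoventral axis, and for pluripotency, neural progenitor, neuron, astrocyte, oligodendrocyte, neural crest, skeletal muscle, mesenchyme, endoderm and surface ectoderm. Named were all 10 members, up to 4 called genes of a list with the largest change on Day 7, and defining markers. The 3 genes nearest to the member with the largest rise on Day 7, and to that with the largest change from Day 7 to Day 10, were also named. This member was Msx1 in both cases. Genes outside this rule are marked where they appear, with exceptions added from the lists. These are the ligands Bmp4 and Bmp7, other BMP and RA list genes given as not called, called genes after the first 4 of a list, and untested motor neuron genes. Alternatives covered the summary of probesets, offset, filter, quantile normalization, centring, replicate block, arrays in the fit, moderation, thresholds, probesets with several symbols, and leaving out each array.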

Additional observations from a re-analysis of the deposited data

How the results depend on the processing

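Across 21 alternatives (20 for Pax7 and Dbx1, which the stricter filter removed), Pax3 and Msx1 were called against Day 0 on both days, with changes of 2.39 to 3.32 and 2.88 to 3.89 for Pax3 and of 2.70 to 3.39 and 1.97 to 2.67 for Msx1. Of 9 tested factors, 2 or 3 were called higher on Day 7 and on Day 10. Irx3 crossed the threshold in both comparisons with Day 0. On Day 10 its change ran from 1.09 to 2.01 when an array was left out, and its call was lost as given in the report. On Day 7 it ran from 0.69 to 1.45 when an array was left out. It was called with the replicate block (change 1.07, adjusted p = 0.01625 by limma) and with only the 2 days compared (adjusted p = 0.03159 by limma). It was also called without Day 0 replicate 2 (change 1.45), Day 10 replicate 1 (1.07) or Day 10 replicate 2 (1.07). By median polish the Day 7 change was 0.51 (adjusted p = 0.3619), and by the mean of probesets 0.48 (adjusted p = 0.3777), both by limma and not called. The block changed no other call of a factor. The numbers were not taken to pair the samples, since the study's methods state no such pairing. The differences between replicates correlated at -0.0756 for Day 0 and Day 7, 0.329 for Day 0 and Day 10, and -0.0254 for Day 7 and Day 10.

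Signs turned for small changes that were not called in either setting, and the cause was not tested. On Day 7 against Day 0, Pax7 became -0.15 by median polish, -0.061 by the mean, -0.076 by quantile normalization and -0.15 by centring. Olig2 became -0.095, -0.018, -0.12 and -0.20 in the same order. Dbx1 became 0.10 by the mean, and Msx2 became -0.042 by quantile normalization and -0.20 by centring. On Day 10 against Day 0, Dbx1 became 0.21 by median polish and 0.29 by the mean, Msx2 0.0022 by median polish and Pax7 -0.021 by centring. On Day 10 against Day 7, Pax7 became 0.27 by median polish, 0.13 by the mean, 0.14 by quantile normalization and 0.13 by centring, Nkx6-1 -0.060 by the mean and Msx2 0.0071 by centring. When 1 array was left out, the Day 7 change ran from -0.030 to 0.26 for Pax7, -0.084 to 0.20 for Olig2 and -0.17 to 0.28 for Msx2. The Day 10 change from Day 0 ran from -0.18 to 0.44 for Pax6, -0.26 to 0.30 for Pax7, -0.23 to 0.40 for Olig2, -0.099 to 0.025 for Dbx1 and -0.80 to 0.50 for Msx2. From Day 7 to Day 10 it ran from -0.37 to 0.19 for Pax7, -0.29 to 0.34 for Olig2, -0.033 to 0.20 for Dbx1 and -0.86 to 0.44 for Msx2. The remaining array of a day is then assumed to vary like the others.

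Over all tested genes, calls on Day 7 were 1279 higher and 512 lower (720 to 1414 and 256 to 986 over the alternatives). On Day 10 against Day 0 they were 828 and 846 (556 to 1026 and 345 to 2074), and against Day 7 41 and 38 (26 to 136 and 7 to 1295). The lowest and highest of these came from leaving out an array or from the scaling in all but 1 case, the replicate block. Without Day 7 replicate 1 there were 720 higher and 256 lower on Day 7. On Day 10 against Day 0, 345 were lower without Day 10 replicate 1 and 2074 without Day 10 replicate 2, which also gave the 1295 against Day 7. Among calls, the share that was higher on Day 7 was 71.4%, and 48.6% with centred arrays. The median of all tested genes on Day 7 moved with centring from 0.099 to -0.16. From Day 7 to Day 10, where calls were few, the share had no settled side. It was 51.9%, then 69% after quantile normalization and 70.8% with centring, and was 22.6% by the mean of probesets, 28.6% by median polish, 21.5% with the replicate block and 26.7% with only the 2 days compared. Leaving out Day 10 replicate 2 gave 4.85%, and leaving out replicate 1 of that day gave 81.3%. For Day 10 against Day 0 the share was 49.5%, and 24.7% and 74.2% when the same arrays were left out. Values near the offset and 2 arrays per day limit what dim genes such as Nkx2-2 can show.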

Other observations

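Markers of the stages differed between the days beside the patterning factors. Of all tested genes, 11.2% were called higher and 4.5% lower on Day 7 than on Day 0. On Day 10 these shares were 7.27% and 7.43% against Day 0, and 0.36% and 0.334% against Day 7. Of 12 tested genes of neurons, 10 were higher on Day 7 than on Day 0 and 8 on Day 10, and 3 were lower on Day 10 than on Day 7. Their summed intensity was 3016 to 3644 on Day 0, 19770 to 21960 on Day 7 and 7473 to 10250 on Day 10. Dcx, which encodes the microtubule protein doublecortin of young neurons, rose by 5.97 (SE 0.44, adjusted p = 1.243e-06 by limma) on Day 7. Tubb3, the other defining marker of the neuron list, rose by 2.17 (adjusted p = 0.0005372 by limma). Of 8 tested genes of astrocytes and radial glia, 3 were higher and 2 lower on Day 7, and 6 higher and 1 lower on Day 10, both against Day 0. The 2 lower on Day 7 were Aldh1l1 (-1.92) and Gja1 (-1.66). Between Day 10 and Day 7, 2 of the 8 were called higher and 0 lower. Gfap, the intermediate filament gene of astrocytes, rose by 3.51 (SE 0.38, adjusted p = 0.001075 by limma) from Day 7 to Day 10.

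Of 11 tested neural progenitor genes, 4 rose and 1 fell on Day 7, beside 11.2% and 4.5% of all tested genes. Fabp7 changed by 4.38 (adjusted p = 1.649e-05 by limma) and Sox3 by -1.49 (adjusted p = 0.004349 by limma). Of the defining markers, Nes rose by 1.65 (adjusted p = 0.007297 by limma), while Sox1 was not called. Of 8 tested pluripotency genes, 0 rose and 5 fell on Day 7, and Utf1, a chromatin factor of embryonic stem cells, fell by 6.13 (adjusted p = 3.047e-05 by limma). Of the defining markers, Pou5f1 fell by 3.76 (adjusted p = 0.001761 by limma), while Nanog, at -1.55, was not called (adjusted p = 0.1253 by limma). Of 7 tested surface ectoderm genes, 0 rose and 1 fell. The adhesion gene Epcam fell by 3.36 (adjusted p = 0.004139 by limma), and Krt5 was not called.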
